A study of Mus musculus with 40 samples.

Results

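The genes described here are the small nuclear and small nucleolar RNA genes of mouse striatum, with the RNA subunits of RNase MRP and RNase P. They were taken by symbol from the deposited count table, as every row that starts with Snora, Snord, Scarna or Rnu, plus Rmrp and Rpph1. This gave 126 of 24060 rows: 74 Snord, 36 Snora, 9 Scarna and 5 Rnu genes and the 2 RNase subunits. Of these, 69 reached 10 counts in at least 4 of the 40 libraries and were tested, 43 stayed below that, and 14 had no count in any library. The genes tested were 29 Snord, 28 Snora, 7 Scarna, 3 Rnu and both RNase subunits. Those without a count included Rnu7, the U7 RNA of histone mRNA processing, and Snord116 with 2 further copies of the imprinted Snord116 cluster. Rnu6, the U6 RNA of the major spliceosome, had 2 counts in 1 library. Snord116 and its 2 copies each had 69 other genomic matches at 95% identity over 90% of their length, and Rnu6 had 202. How reads with several alignments were counted is not given. Snora24, Snora26, Snord1a, Snord45c and Snord7, also without a count, overlap an exon of another gene on their strand. A lack of counts therefore does not show a lack of the RNA. Every row of these classes was kept.

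The study injected an adeno-associated virus that carries the RiboTag, the ribosomal protein Rpl22 with a haemagglutinin (HA) tag, into the striatum of adult mice. The input is RNA of the cleared lysate from all cells of the tissue, and the IP is the RNA pulled down with the HA tag from the cells that the promoter of the virus selects. The 40 libraries, from 24 mice by the series description, fell into 10 groups of 4. Control input and Control IP came from C57/BL6NTac mice and were taken as the astrocyte RiboTag (GfaABC1D promoter) from the strain and the methods, since their labels name no virus. WT input and WT IP came from C57/BL6J mice, and SAPAP3 KO input and IP from C57/BL6J-Dlgap3 KO mice, which carry a knockout of the gene for the postsynaptic scaffold protein SAPAP3. Their labels give no cell type for the IP, and all 10 astrocyte markers were called higher in both of these IP groups and in Control IP. The neuron libraries carried the RiboTag under the hSYN1 promoter in C57/BL6NTac mice, with 4 input and 4 IP samples that the labels give different animal names. The last 8 libraries were bulk striatum of WT and SAPAP3 KO mice, labelled C57/BL6NTac, with 1 animal name shared between the genotypes. A viral RiboTag marks only infected cells, so an IP samples a part of its cell type.

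Small nucleolar RNAs (snoRNAs) guide the chemical modification of other RNAs in the nucleolus. Box C/D snoRNAs (Snord genes) direct 2′-O-methylation and box H/ACA snoRNAs (Snora genes) direct pseudouridylation, mostly of ribosomal RNA, and small Cajal body RNAs (Scarna genes) do the same for spliceosomal RNAs in Cajal bodies. In mammals most are cut out of the introns of a host gene after splicing and stay in the nucleus, bound to their core proteins. Rmrp and Rpph1 are transcribed from their own genes by RNA polymerase III. They are the catalytic RNAs of RNase MRP, which cuts the ribosomal RNA precursor, and RNase P, which trims the 5′ end of tRNA precursors. Rnu11 and Rnu12 encode the U11 and U12 RNAs of the minor spliceosome.

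The sequences below are those of the genes on which the results turn, read from the RefSeq annotation and genome of GRCm38.p6, the assembly of mm10. Of the 126 genes, 125 matched that annotation, and Rnu73b did not. Their annotated lengths ran from 28 to 325 nt with a median of 107.5 nt. The genes with no annotated host are shown first: Rmrp was among the most counted, and Rnu11 and Rnu12 are the spliceosomal RNAs tested. Rmrp is at chr4:43492785-43493059 on the minus strand, outside any other annotated gene of its strand. Rnu12 is at chr15:83149645-83149794 on the plus strand and Rnu11 at chr4:132270079-132270186 on the minus strand.
Rmrp: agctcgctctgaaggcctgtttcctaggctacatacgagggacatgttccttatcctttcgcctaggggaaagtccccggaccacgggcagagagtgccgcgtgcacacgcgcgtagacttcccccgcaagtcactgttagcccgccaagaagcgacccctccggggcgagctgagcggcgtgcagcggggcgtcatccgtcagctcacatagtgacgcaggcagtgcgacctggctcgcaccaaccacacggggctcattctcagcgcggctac
Rnu12: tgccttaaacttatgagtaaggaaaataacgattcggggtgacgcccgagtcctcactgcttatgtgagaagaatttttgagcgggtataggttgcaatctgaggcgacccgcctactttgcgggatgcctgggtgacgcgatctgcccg
Rnu11: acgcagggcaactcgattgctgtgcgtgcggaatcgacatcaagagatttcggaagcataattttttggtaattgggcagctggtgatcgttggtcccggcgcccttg
The Scarna genes follow, since 1 of them, Scarna13, had nearly equal levels in IP and input. Scarna13 is at chr12:105031075-105031349 on the minus strand, in an intron of the noncoding gene Snhg10. Scarna10 is at chr6:125186361-125186431 on the minus strand, in an intron of Ncapd2, and Scarna6 at chr1:87784571-87784818 on the plus strand, in an intron of Atg16l1. Scarna2 is at chr3:108554342-108554402 on the minus strand with no annotated host. Capitals mark an ACA that starts within the last 12 bases.
Scarna13: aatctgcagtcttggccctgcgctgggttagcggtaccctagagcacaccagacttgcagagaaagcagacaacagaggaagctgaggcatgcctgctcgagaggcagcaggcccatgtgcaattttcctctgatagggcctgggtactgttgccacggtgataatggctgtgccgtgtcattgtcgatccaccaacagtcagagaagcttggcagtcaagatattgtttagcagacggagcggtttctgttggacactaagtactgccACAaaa
Scarna10: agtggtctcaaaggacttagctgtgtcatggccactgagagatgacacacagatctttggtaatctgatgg
Scarna6: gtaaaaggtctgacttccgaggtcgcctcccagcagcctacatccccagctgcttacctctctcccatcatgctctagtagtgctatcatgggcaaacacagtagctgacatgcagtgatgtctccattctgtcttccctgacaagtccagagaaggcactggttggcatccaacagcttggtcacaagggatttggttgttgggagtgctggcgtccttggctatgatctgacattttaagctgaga
Scarna2: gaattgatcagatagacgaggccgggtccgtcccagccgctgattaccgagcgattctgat
A pair of H/ACA snoRNAs with the ACA tail in capitals is shown next. Snora7a is at chr6:115807975-115808103 on the minus strand, in an intron of Rpl32. Snora78 is at chr17:24719676-24719832 on the minus strand, in an intron of Snhg9, and the gene Rps2 lies across it on the other strand.
Snora7a: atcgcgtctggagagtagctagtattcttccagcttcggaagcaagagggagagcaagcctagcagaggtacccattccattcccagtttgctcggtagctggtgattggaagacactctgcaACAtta
Snora78: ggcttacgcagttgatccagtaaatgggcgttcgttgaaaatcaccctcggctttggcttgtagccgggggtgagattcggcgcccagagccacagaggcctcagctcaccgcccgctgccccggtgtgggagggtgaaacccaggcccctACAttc
The last 3 are C/D snoRNAs, with the C box (TGATGA) and the last D box (CTGA) in capitals where the letters were present. Snord17 is at chr2:144265982-144266202 on the minus strand, in an intron of Snx5. Snord104 is at chr11:106500991-106501063 on the plus strand, within the noncoding gene Gm36220. Snord64 is at chr7:59978811-59978856 on the minus strand, within the imprinted transcript Snhg14, which the table lists as C230091D08Rik.
Snord17: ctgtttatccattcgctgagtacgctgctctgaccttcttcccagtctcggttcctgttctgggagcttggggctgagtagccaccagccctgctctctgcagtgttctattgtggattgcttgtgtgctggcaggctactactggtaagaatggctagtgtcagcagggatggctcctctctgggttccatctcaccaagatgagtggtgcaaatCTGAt
Snord104: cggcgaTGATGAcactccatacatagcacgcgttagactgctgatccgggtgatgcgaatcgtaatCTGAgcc
Snord64: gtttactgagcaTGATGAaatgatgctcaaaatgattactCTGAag

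Motifs were searched on the strand of the gene only. All 74 Snord genes held CTGA, as did 30.6% of promoter windows of the same length, and 27 of 74 (36.5%) held TGATGA, against 1.53% of such windows. An ACA within the last 12 bases was present in 34 of 36 Snora genes (94.4%) and in 5 of 9 Scarna genes (55.6%), against 14.3% and 14.1% of windows. Of the 68 tested genes with a sequence, 13 had another genomic match at 95% identity over 90% of their length, among them Rnu12 with 3 and Snora81 with 1. Counts of such genes are uncertain, since it is not given how reads with several alignments were counted. The same holds for Snora78, which lies opposite Rps2, because the strand setting is not given.

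The libraries held 23438112 to 84109800 counts. No pair of libraries had identical values. The summed level of 10 microglia markers was lower in every IP than in every input of its cohort, at 44.1 to 166 CPM (counts scaled to the same total in each library) against 777 to 1738, and all 10 were called lower in each of the 4 cohorts. In the neuron cohort 3 of 9 neuron markers were called higher in the IP and all 10 oligodendrocyte markers lower, whereas in WT and SAPAP3 KO 4 of 10 oligodendrocyte markers were called higher. The summed level of the 9 neuron markers was 4471 to 4824 CPM in Control IP against 6762 to 7085 in Control input. It was 4278 to 5637 against 6923 to 7396 in WT and 4143 to 5025 against 6855 to 7463 in SAPAP3 KO. In the neuron cohort it was 8647 to 9012 against 6185 to 6521. These marker levels moved with the results below, and their part in them was not tested.

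Together the 126 genes took 2395 to 5955 CPM of the library total in the 16 inputs and 2262 to 3252 CPM in the 8 bulk libraries, but 162 to 485 CPM in the 16 IP libraries. The highest IP library lay below the lowest input. Rmrp and Rpph1 made up 94.4 to 96.3% of these counts in the inputs and 41.5 to 82.8% in the IP. The summed level of the other 124 genes was 225 to 264 CPM in Control input and 94.97 to 100.1 CPM in Control IP, and 145 to 160 CPM in neuron input and 74.0 to 87.4 CPM in neuron IP. Scarna13 alone carried most of the IP sum, and the remaining 123 genes took 123 to 153 CPM in Control input and 14.1 to 15.4 CPM in Control IP, and 80.4 to 96.7 and 8.70 to 11.9 CPM in neurons. These sums are of counts, not per length, so they compare libraries and not genes.

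Most of the tested genes were lower in the IP than in its own input. The call asked for a log2 fold change beyond 1 and an adjusted p under 0.05 (edgeR quasi-likelihood test, Benjamini-Hochberg over all genes). Of the 69, 62 were called lower in Control, 54 in WT, 55 in SAPAP3 KO and 66 in neurons, and 0 were called higher in any of them. Of all genes tested, 15% were called lower in Control, 13.1% in WT, 13.1% in SAPAP3 KO and 16.9% in neurons, and 13.2%, 11.3%, 12.1% and 0.477% were called higher. The median log2 fold change of the 69 was -2.52, -1.92, -1.90 and -3.11 in the same order, with medians over all genes between -0.04 and -0.01. Without the fold limit, 1 gene, Scarna13, was higher in WT, SAPAP3 KO and neurons, also at an unadjusted p under 0.05, and 0 were higher in Control. Of all genes 33.8%, 35% and 35% were higher by this rule in WT, SAPAP3 KO and neurons, and 37.7% in Control. limma-voom and DESeq2 called 0 higher beyond the fold limit in the 4 cohorts. The filter bears on these counts: in Control 51 of the 69 genes had fewer than 10 counts in every IP library, and in WT, SAPAP3 KO and neurons 43, 51 and 43, so those genes were tested because of their level in other libraries and the filter favours the direction of their call. In a tissue sample, fewer cells of a type and less RNA per cell cannot be told apart, and an IP over its input compares a selected cell type with all cells.

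**Figure D1:**
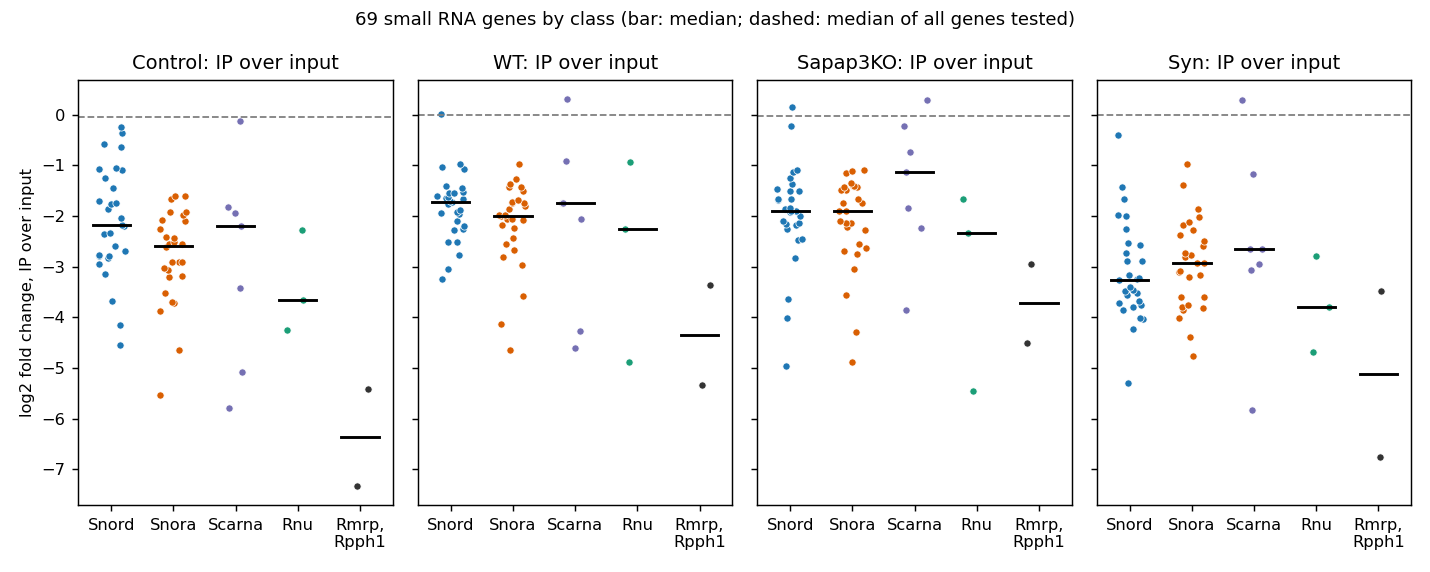
Log2 fold change of IP over input for the 69 tested genes in the 4 cohorts, 1 point per gene, by class. Black bars are class medians and the dashed line is the median of all genes tested; every class median lies below the dashed line in each cohort, and Scarna13 sits near 0 in each.

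Across the cohorts, 46 of the 69 genes were called lower in all 4, 12 in 3, 8 in 2 and 1 in 1 of them. Of all genes tested, 6.81% were called lower in all 4, 3.89% in 3, 3.94% in 2 and 11.3% in 1. The remaining 2 of the 69, Scarna13 and Snord14a, were called in none. Snord14a, a C/D snoRNA, had log2 fold changes of -0.59, 0.01, -0.23 and -0.40 in Control, WT, SAPAP3 KO and neurons, with SE from 0.34 to 0.61. The IP and input libraries did not overlap, with the IP lower, in 55, 48, 46 and 64 of the 69 genes, and in 36.6%, 27.3%, 31.5% and 33.3% of all genes.

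Rmrp, the RNA of RNase MRP, fell further than any other tested gene of these classes in Control, WT and neurons. After scaling by the trimmed mean of M-values (TMM), the 4 Control inputs had 1677, 1348, 1417 and 1634 CPM and the 4 IP libraries 10.3, 8.27, 10.04 and 8.97 CPM. All IP libraries were below all inputs, and the IP held 0.619% of the input level. The log2 fold change was -7.33 (SE 0.10, adjusted p = 8.04e-13 by edgeR), a 161-fold difference. In neurons the inputs had 895, 899, 757 and 777 CPM and the IP 5.36, 6.51, 8.91 and 9.80 CPM, or 0.919% of the input, with a log2 fold change of -6.77 (SE 0.19). The WT inputs ran from 638 to 1285 CPM and the IP from 6.31 to 35.2 CPM, with a log2 fold change of -5.33 (SE 0.52). In SAPAP3 KO the inputs had 782 to 1348 CPM, and the 4 IP libraries 71.3, 10.4, 12.8 and 80.0 CPM. Replicates 1 and 4 were higher than every other IP library of any group, and the log2 fold change was -4.50 (SE 0.62).

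Rpph1, the RNA of RNase P, also fell in the 4 cohorts, by less than Rmrp. In Control the inputs had 3342, 2993, 3252 and 3528 CPM and the IP 63.1, 72.7, 91.1 and 81.4 CPM, a log2 fold change of -5.41 (SE 0.11, adjusted p = 3.89e-12 by edgeR). In WT, SAPAP3 KO and neurons the log2 fold changes were -3.37 (SE 0.20), -2.95 (SE 0.24) and -3.49 (SE 0.08), and the IP held 9.67%, 13.0% and 8.91% of the input, against 2.35% in Control. The IP and input libraries did not overlap in any cohort. Within a library the log2 ratio of Rmrp to Rpph1 counts needs no scaling between libraries. It differed between IP and input by -1.91 in Control, -2.11 in WT, -2.01 in SAPAP3 KO and -3.31 in neurons, with the IP lower and no overlap. This pair was chosen after its values were seen, so the ratio is a description.

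**Figure D2:**
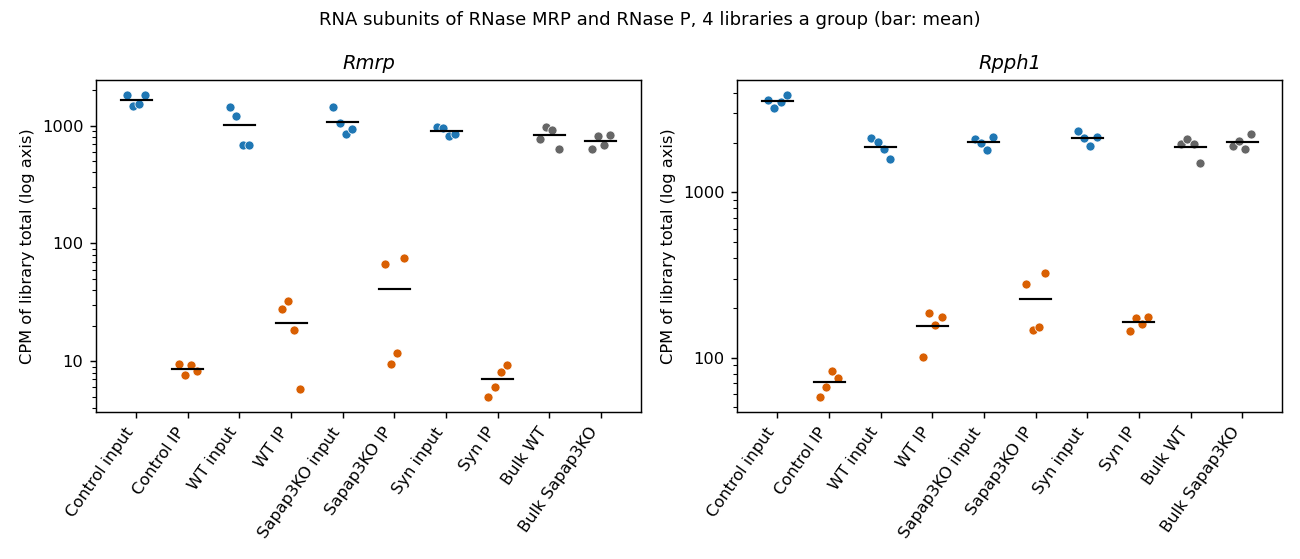
CPM of the library total (log axis) of Rmrp and Rpph1 in all 40 libraries, 4 points a group with the mean as a bar. The IP groups lie below every input and bulk group for both genes, and the SAPAP3 KO IP libraries split for Rmrp into 2 at 9.46 and 11.7 CPM and 2 at 66.6 and 75.4 CPM.

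Box H/ACA snoRNAs were called lower in 28 of 28 tested genes in Control, 23 in WT, 25 in SAPAP3 KO and 27 in neurons, with median log2 fold changes of -2.58, -1.995, -1.90 and -2.93. Of all genes tested, 15%, 13.1%, 13.1% and 16.9% were called lower. The limit of the filter given above holds for these counts too. Snora74a, one of the most counted of them, had 16.7, 11.2, 13.5 and 16.2 CPM in Control input and 0.412, 0.236, 0.225 and 0.344 CPM in Control IP, a log2 fold change of -5.55 (SE 0.20). In WT, SAPAP3 KO and neurons it changed by -4.65, -4.88 and -4.77. Its SAPAP3 KO inputs were the most scattered, at 45.5, 26.1, 13.6 and 10.4 CPM. Snora23, carried in the nuclear import gene Ipo7, changed by -2.55, -4.14, -4.30 and -3.80 in the 4 cohorts. Its inputs had 0.617 to 0.771 CPM in Control and 1.06 to 5.97 CPM in SAPAP3 KO, whereas its IP levels were 0.0688 to 0.216 CPM over the 4 cohorts.

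Snora7a, in an intron of the ribosomal protein gene Rpl32, had 1.33, 1.43, 1.48 and 1.29 CPM in Control input and 0.389, 0.378, 0.383 and 0.295 CPM in Control IP. The groups did not overlap, and the log2 fold changes were close across the cohorts, at -1.93 (SE 0.19), -2.01 (SE 0.35), -2.14 (SE 0.44) and -2.11 (SE 0.30). Snora28, in the translation initiation factor gene Eif5, changed by -2.41, -2.08, -1.66 and -2.01, and Snora81, in Eif4a2, by -2.52, -1.98, -2.27 and -2.80. All of these were called lower. The 1 H/ACA gene not called in neurons was Snora78, at -0.98 (SE 0.18, adjusted p = 0.000592 by edgeR), which missed the fold limit.

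Box C/D snoRNAs were called lower in 23 of 29 tested genes in Control, 22 in WT, 22 in SAPAP3 KO and 28 in neurons, with median log2 fold changes of -2.18, -1.72, -1.89 and -3.25. The shares over all genes were 15%, 13.1%, 13.1% and 16.9%, and the limit of the filter holds here too. Snord17 had the most negative values of the abundant ones. Its Control inputs had 7.04, 4.84, 5.16 and 6.32 CPM and its IP libraries 0.297, 0.189, 0.203 and 0.295 CPM, a log2 fold change of -4.55 (SE 0.20). It changed by -3.25 (SE 0.46) in WT, -4.02 (SE 0.34) in SAPAP3 KO and -5.30 (SE 0.29) in neurons, where its IP held 2.49% of the input. Snord96a, in the ribosomal scaffold gene Rack1 (listed as Gnb2l1), changed by -3.14, -1.97, -1.66 and -4.02. Snord15b, in the ribosomal protein gene Rps3, changed by -3.68, -1.61, -2.14 and -3.16. Both were called lower in all 4 cohorts.

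Snord64, from the imprinted Snrpn to Ube3a region, was the only tested snoRNA of that region. Its Control inputs had 1.52, 1.04, 2.41 and 0.845 CPM and its Control IP libraries 0.458, 0.756, 0.698 and 0.934 CPM, and the groups overlapped. In neurons the inputs had 3.16, 3.66, 3.20 and 3.42 CPM and the IP 1.35, 1.01, 1.05 and 0.842 CPM, with no overlap. The log2 fold changes were -1.04 (SE 0.33, adjusted p = 0.0128 by edgeR), -1.94, -2.09 and -1.65 (SE 0.15) in Control, WT, SAPAP3 KO and neurons. The Control call was lost without Control input replicate 3 (-0.67, adjusted p = 0.0567 by edgeR), without Control IP replicate 1 (-0.87, within the fold limit) and with ribosomal protein genes as the reference (-0.39, adjusted p = 0.211 by edgeR). Its host transcript changed by -1.49, -1.78, -1.54 and -3.09.

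The 7 tested Scarna genes ranged widely. Scarna6 had 8.59, 4.58, 8.19 and 9.33 CPM in Control input and 0.137, 0.0945, 0.180 and 0.123 CPM in Control IP, a log2 fold change of -5.80 (SE 0.30). It changed by -4.60, -3.86 and -5.84 in WT, SAPAP3 KO and neurons, and its groups did not overlap in any cohort. Scarna10, in the condensin gene Ncapd2, had 28.2, 21.0, 23.3 and 29.8 CPM in Control input and 0.870, 0.543, 0.788 and 0.787 CPM in Control IP, a log2 fold change of -5.09 (SE 0.16). In WT, SAPAP3 KO and neurons it changed by -2.07, -1.84 and -2.66. The difference lay in the inputs, which in these 3 cohorts had 1.98 to 4.99 CPM, whereas the IP libraries had 0.345 to 1.28 CPM in all 4.

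Scarna2 fell less. Its Control inputs had 30.9, 31.0, 31.9 and 33.3 CPM and its IP libraries 7.73, 7.58, 6.15 and 6.19 CPM, a log2 fold change of -2.20 (SE 0.08). In neurons it changed by -1.17 (SE 0.17), and in WT and SAPAP3 KO by -0.91 (SE 0.20, adjusted p = 0.0029) and -0.75 (SE 0.20, adjusted p = 0.0058 by edgeR), within the fold limit. Scarna9, in Cep295, had log2 fold changes of -1.81, -1.73, -1.14 and -3.07, all called lower. Leaving out 1 library ended its call in WT (adjusted p up to 0.0884) and in SAPAP3 KO (up to 0.125, without input replicate 4), as did ribosomal protein scaling in SAPAP3 KO (-0.97, adjusted p = 0.0855 by edgeR). Scarna17 changed by -3.41, -4.27 and -2.95 in Control, WT and neurons but by -0.22 (SE 0.63, adjusted p = 0.761) in SAPAP3 KO, where its IP libraries had 0.0514, 0.0265, 0.0796 and 0.235 CPM and overlapped the inputs at 0.0663 to 0.158 CPM.

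Scarna13 had nearly the same level in IP and input. In Control the inputs had 91.4, 94.4, 99.9 and 100.3 CPM and the IP libraries 86.7, 87.5, 89.1 and 93.0 CPM, which overlapped. In WT the inputs had 59.9, 54.9, 53.7 and 59.3 CPM and the IP 74.2, 71.1, 60.7 and 76.2 CPM, and in neurons 62.3, 60.4, 58.6 and 61.6 CPM against 72.0, 69.6, 74.5 and 80.7 CPM. In both the IP lay above the input without overlap. The SAPAP3 KO libraries overlapped, at 52.0 ± 6.12 CPM (SD, n = 4) in the input and 63.9 ± 10.1 CPM (SD, n = 4) in the IP. The log2 fold changes were -0.12 (SE 0.04, adjusted p = 0.021), 0.31 (SE 0.08, adjusted p = 0.00622), 0.30 (SE 0.12, adjusted p = 0.043) and 0.29 (SE 0.05, adjusted p = 0.000365) in Control, WT, SAPAP3 KO and neurons by edgeR. Leaving out 1 library at a time, the adjusted p reached 0.0733 in Control without IP replicate 1 and 0.13 in SAPAP3 KO without IP replicate 4, and at most 0.0409 in WT and 0.00143 in neurons (edgeR). With ribosomal protein genes as the reference the values were 0.53, 0.48, 0.47 and -0.11, so the sign turned in Control and neurons and stayed in WT and SAPAP3 KO.

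**Figure D3:**
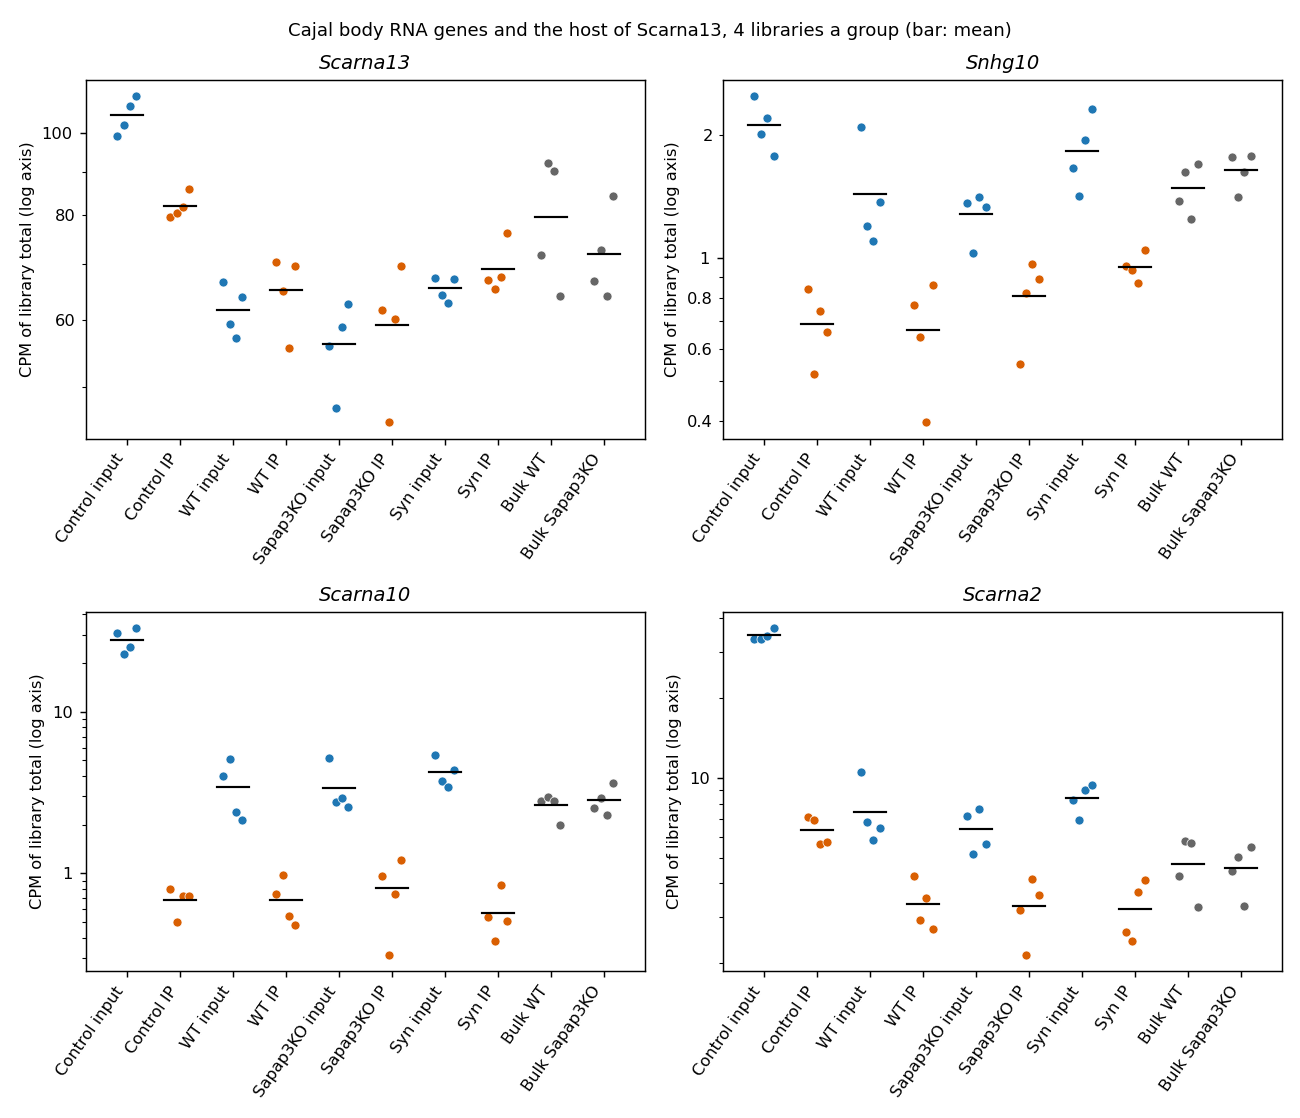
CPM of the library total (log axis) of Scarna13, its host Snhg10, Scarna10 and Scarna2 in all 40 libraries, 4 points a group with the mean as a bar. Scarna13 stays within 47.3 to 111 CPM in every input, and Scarna10 and Scarna2 are higher in Control input than in any other group.

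The host gene Snhg10, whose intron holds Scarna13, changed by -1.37, -0.86, -0.44 and -0.73 in the 4 cohorts. The log2 ratio of Scarna13 to Snhg10 counts within a library was higher in the IP than in the input by 1.26, 1.19, 0.75 and 1.00, with no overlap between the 4 IP and 4 input libraries of any cohort. As a ratio within a library it does not depend on the scaling between libraries. For Snord64 and its host the ratio changed by 0.54, -0.04, -0.51 and 1.43, and the IP and input libraries overlapped in Control, WT and SAPAP3 KO but not in neurons. For Snora78 and Snhg9 it changed by -0.39, -0.12, 0.46 and 1.00, with overlap in each cohort. These pairs were chosen after their values were seen.

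**Figure D4:**
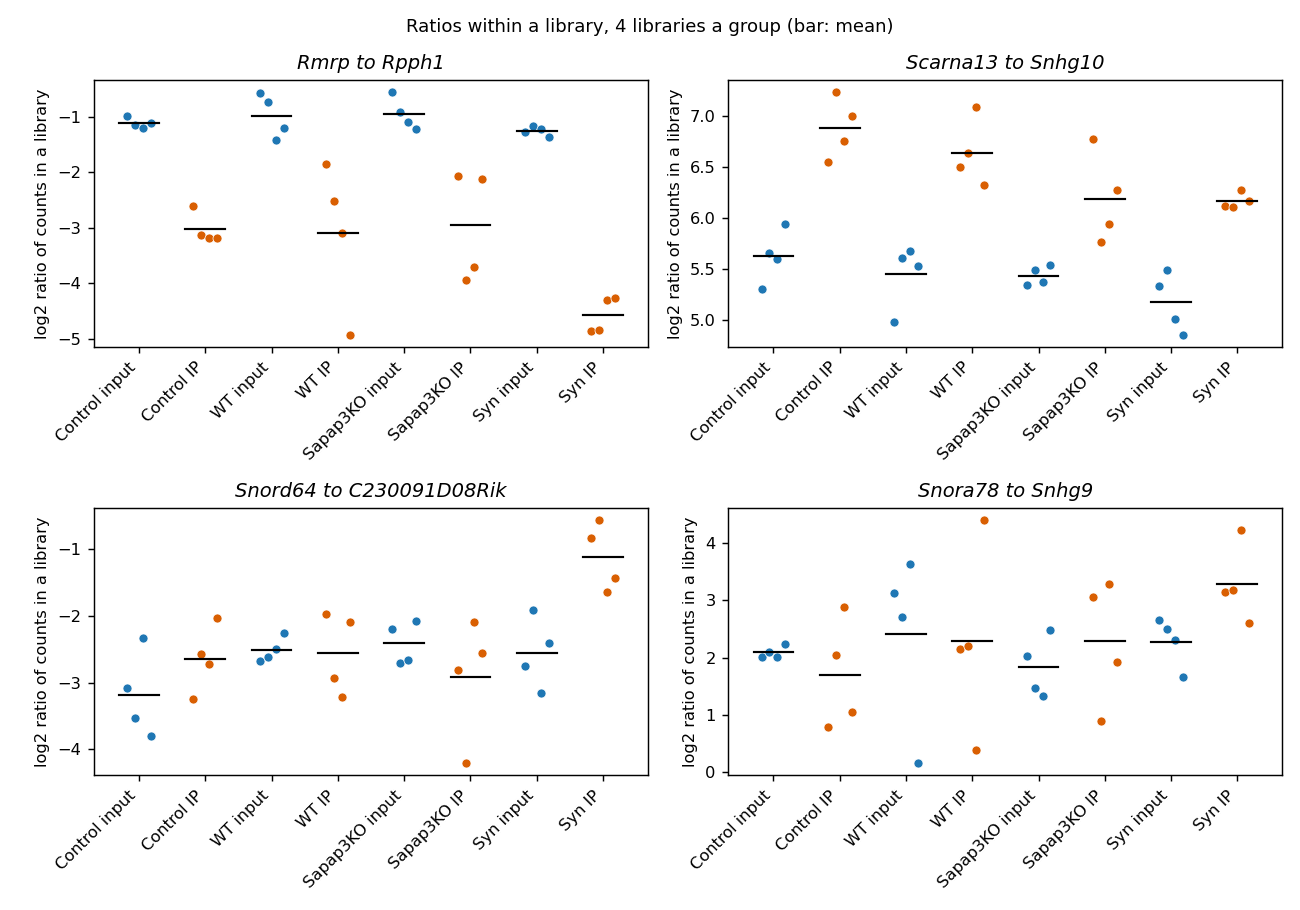
Log2 ratio of the counts of a pair of genes within each of the 32 IP and input libraries, 4 points a group with the mean as a bar. The Rmrp to Rpph1 ratio is lower and the Scarna13 to Snhg10 ratio higher in the IP of every cohort, and the other pairs overlap in at least 3 cohorts.

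The other genes were mostly lower in the IP than the host transcript they are cut from. Among 59 gene and host pairs with both tested, in 48 hosts, the small RNA gene had the lower log2 fold change in 52 pairs in Control, 56 in WT, 55 in SAPAP3 KO and 55 in neurons. It was lower by more than 1 in 44, 40, 39 and 53 pairs. The median of the small RNA genes minus their hosts was -1.62, -1.39, -1.45 and -2.73, and the hosts themselves had medians of -0.87, -0.54, -0.51 and -0.31. The limit of the filter given above holds for these pairs and medians too. Many of the small RNA genes had fewer than 10 counts in every IP library, and the filter favours low values for them. Snhg12 holds 4 of the tested genes. In Control Snora16a, Snora44, Snora61 and Snord99 changed by -3.18, -3.06, -3.72 and -2.59, and Snhg12 by -1.68. Genes of the same host share its transcript and are not independent. Whether counts on these rows come from the cut-out small RNA or from the unspliced host was not tested, and no kit for small RNA is named. Only Scarna13 and Snord14a were above their host in all 4 cohorts.

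**Figure D5:**
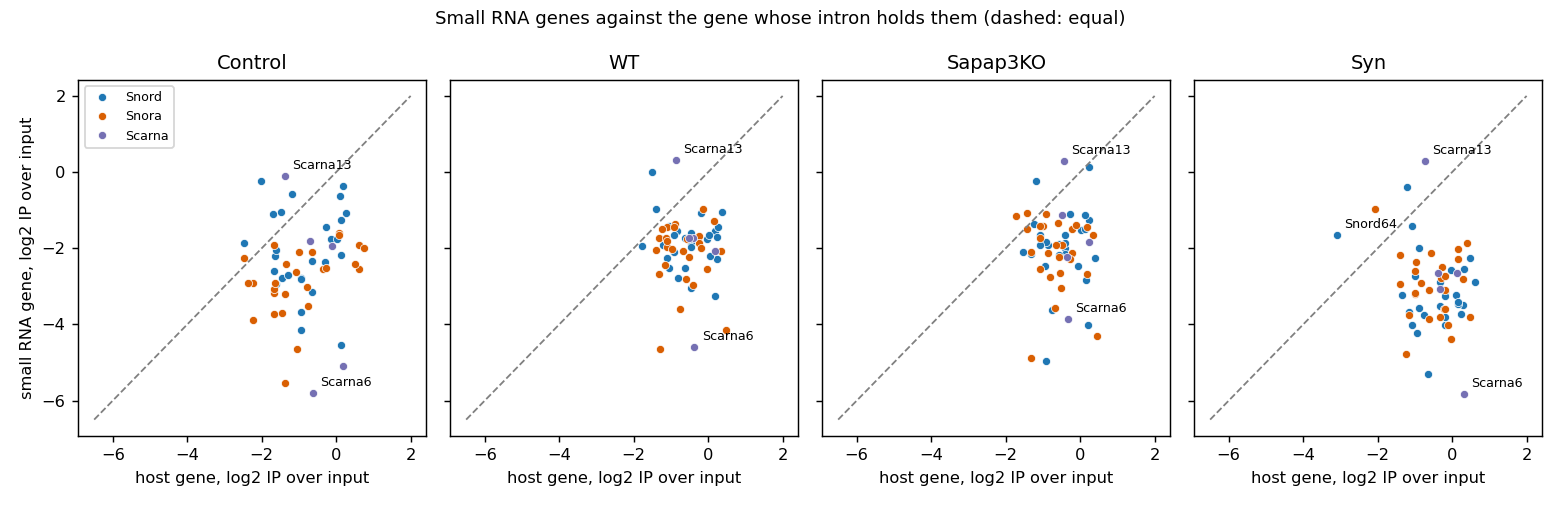
Log2 fold change of IP over input of each small RNA gene against that of its host gene in the 4 cohorts, 1 point per pair, with the dashed line marking equal change. Most points lie below the line, 52 to 56 of 59 a cohort, and Scarna13 lies above it in each. The limit of the filter given in the text holds for these points too.

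Longer genes had lower values in 3 of the 4 cohorts. The 37 tested genes of 100 nt or more had median log2 fold changes of -2.79, -2.07, -2.14 and -3.08 in Control, WT, SAPAP3 KO and neurons, and the 31 shorter ones -2.18, -1.73, -1.69 and -3.17. Spearman's rho between length and log2 fold change over these 68 genes was -0.47, -0.34, -0.37 and -0.20. The points share their libraries, and the longer genes had a higher median level in these libraries (0.350 against 0.150 CPM), so the correlations are descriptions.

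The tested Rnu genes were Rnu11, Rnu12 and Rnu73b. Rnu12 had 1.30, 1.82, 1.14 and 2.28 CPM in Control input and 0.114, 0.0709, 0.0901 and 0.0492 CPM in Control IP, and its log2 fold changes were -4.26 (SE 0.35), -4.89 (SE 0.35), -5.45 (SE 0.27) and -4.69 (SE 0.28). In SAPAP3 KO this was the most negative value of all tested genes of these classes. Rnu11 changed by -3.66 (SE 0.35), -2.25 (SE 0.41), -2.34 (SE 0.38) and -2.79 (SE 0.18). Both were called lower in every cohort, without overlap of IP and input. Rnu73b was called lower in Control and neurons, at -2.29 (SE 0.37) and -3.81 (SE 0.63), and had -0.92 (SE 0.55) in WT and -1.66 (SE 0.73) in SAPAP3 KO. Snord49b had no count in the 4 SAPAP3 KO IP libraries, and at a floor of 3 counts per library it was at least 1.35-fold lower than in its inputs, which had at most 5 counts.

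Next the IP over input difference was compared between cohorts with an interaction term, called at an adjusted p under 0.05 without a fold limit. Between neurons and Control, 8 of the 69 genes had a higher and 10 a lower IP over input in neurons, whereas 35.2% of all genes were called higher and 33.6% lower. The higher ones were Scarna10 (2.45, SE 0.31), Snora78 (1.95, SE 0.26), Rpph1 (1.94, SE 0.13), Scarna2 (1.05, SE 0.20), Snord104 (0.88, SE 0.30), Snora74a (0.80, SE 0.26), Rmrp (0.58, SE 0.20) and Scarna13 (0.42, SE 0.06). The lower ones included Snord72 (-3.91, SE 1.00), Snora35 (-2.23, SE 0.83), Snord47 (-2.09, SE 0.82), Snord85 (-2.09, SE 0.85) and Snord89 (-2.09, SE 0.81). Of these, Snora35 lies in the serotonin receptor gene Htr2c. With ribosomal protein genes as the reference, which moved the median of all genes to -1.05, the interaction of Rmrp, Scarna13, Scarna2, Snora74a and Snord104 had the opposite sign, and 31 of the 69 genes were called lower and 3 higher. Of all 16776 genes, 13330 were called lower and 526 higher under this scaling. Leaving out 1 library ended some of these calls, and the adjusted p then reached 0.117 for Snora35 and 0.107 for Snord89 without Control IP replicate 2, 0.148 for Snord47 without Control IP replicate 3 and 0.0812 for Snord85 without neuron IP replicate 4 (edgeR).

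Snord72, in the ribosomal protein gene Rpl37, shows how few counts such a value can rest on. Its Control inputs had 0.0370, 0.0975, 0.124 and 0.0367 CPM and its Control IP 0.0229, 0.0236, 0.0901 and 0.123 CPM. Its neuron inputs had 0.159, 0.186, 0.347 and 0.216 CPM and its neuron IP 0.0135, 0, 0.0262 and 0 CPM. The groups overlapped in Control and not in neurons. Snord104 had 2.81, 3.12, 2.63 and 2.68 CPM in Control input and 0.549, 0.449, 0.360 and 0.197 CPM in Control IP, a log2 fold change of -2.84. In neurons it had 1.57, 1.61, 1.75 and 1.69 CPM and 0.325, 0.464, 0.367 and 0.528 CPM, a log2 fold change of -1.97. The neuron and Control cohorts differ in cell type and inputs. They also differ in Xist, the RNA of the inactive X chromosome, with 0 to 1 counts in the Control libraries and 1843 to 14313 in the neuron libraries. The term cannot separate cell type from cohort or sex.

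Between WT and Control, 8 genes had a higher and 0 a lower IP over input in WT, where 7.4% of all genes were called higher and 11.1% lower. At an unadjusted p under 0.05, 14 were higher and 3 lower, a count with no share of all genes beside it. limma-voom called 0 lower. DESeq2 also called 0 lower, but it gave no adjusted p for 44 of the 69 genes. The fit with the replicate block, which pairs IP and input of a mouse, called 1 lower (Snora23) and 11 higher. In that fit 2683 of all 16775 genes were lower and 2146 higher. The fit of all 10 groups called 1 lower (Snord64), and 2226 of all 16776 genes. With ribosomal protein genes as the reference 4 of the 69 were higher and 3, Snora23, Snord64 and Snord72, lower. Of all 16775 genes, 70 were higher and 5495 lower under this scaling. The 8 were Scarna10 (2.99, SE 0.39), Snord15b (2.02, SE 0.68), Rpph1 (2.00, SE 0.22), Rmrp (1.96, SE 0.49), Snora78 (1.45, SE 0.48), Snord104 (1.27, SE 0.39), Scarna2 (1.25, SE 0.22) and Scarna13 (0.39, SE 0.09). With ribosomal protein genes as the reference Snora78 (adjusted p = 0.111), Snord104 (0.132), Snord15b (0.0806) and Scarna13 (-0.06, adjusted p = 0.806 by edgeR) were no longer called. Leaving out single libraries ended 3 of these calls, with adjusted p up to 0.105 for Snora78 without WT IP replicate 1, and 0.0654 for Snord104 and 0.0904 for Snord15b without WT IP replicate 3 (edgeR). All but Snord15b were also among the 8 higher in neurons over Control. Both comparisons use the same Control libraries, so this overlap is no independent result. The summed level of the 10 astrocyte markers was 3655 to 3819 CPM in Control input and 30616 to 34172 CPM in Control IP, against 5851 to 7407 and 21342 to 30515 CPM in WT. The 10 oligodendrocyte markers had 5749 to 6677 CPM in Control input and 3268 to 5582 in Control IP, against 5904 to 6869 and 7299 to 10661 CPM in WT. The part of these markers in the interaction was not tested. Mouse substrain, cohort and, by the methods, age at virus injection differ together and cannot be told apart. Whether the WT and Control mice also differ in sex was not tested.

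The Control inputs stood apart from the other inputs for several of the genes named above. They also had less of the astrocyte markers, at 3655 to 3819 CPM against 5851 to 7816 CPM in the other 12 inputs, and the part of this was not tested. In CPM of the library total, Scarna10 ran from 22.7 to 32.8 in Control input, from 2.14 to 5.40 in the other 12 inputs and from 2.00 to 3.63 in the 8 bulk libraries. Scarna2 ran from 33.5 to 36.7 in Control input, against 5.15 to 10.5 in the other inputs and 3.27 to 5.77 in bulk. Rpph1 ran from 3245 to 3890 against 1586 to 2342 in the other inputs, and Rmrp from 1462 to 1821 against 683 to 1443. Snora78 ran from 2.55 to 3.97 in Control input and from 0.301 to 1.29 in the other inputs, and Scarna13 from 99.3 to 111 and from 47.3 to 67.4. For each of these 6 genes every Control input lay above every other input. Snord72 lay the other way, at 0.0402 to 0.133 CPM in Control input and 0.120 to 0.373 in the others, with overlap.

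Loss of SAPAP3 was compared with WT in the same kinds of library. Reads of the targeted gene Dlgap3 remained in the KO, at 200, 188, 166 and 166 CPM in KO input against 514, 395, 376 and 400 in WT input, and at 87.2, 68.3, 49.8 and 56.7 CPM in KO IP against 212, 154, 157 and 179 in WT IP. In bulk it had 161, 153, 154 and 144 CPM in KO and 376, 385, 338 and 232 in WT. KO lay below WT without overlap in each. Of the 69 small RNA genes, 0 were called between genotypes in input, IP, bulk or the interaction of genotype with IP over input (edgeR, adjusted p under 0.05). Of all genes, 0.00596% were called in input, 0.0238% in IP, and 0% in bulk and in the interaction. In each of the 4 comparisons 2 of the 69 had an unadjusted p under 0.05, and the smallest adjusted p was 0.774. These were Snora3 and Snora70 in input, Scarna17 and Snord45b in IP, Snora30 and Snord100 in bulk, and Scarna17 and Snord19 in the interaction. limma-voom and DESeq2 called 0 of the 69 in each as well, and DESeq2 gave no adjusted p for 3 of them in input.

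Rmrp and Rpph1 had the highest IP levels in SAPAP3 KO, with wide spread. The KO IP libraries had 66.6, 9.46, 11.7 and 75.4 CPM of Rmrp and the WT IP libraries 27.9, 32.2, 18.6 and 5.77 CPM, and the genotypes overlapped. The log2 difference of KO and WT was 0.95 (SE 0.67) for Rmrp and 0.54 (SE 0.27) for Rpph1. With ribosomal protein genes as the reference Rmrp was called higher in KO IP, at 1.11 (adjusted p = 5.48e-06 by edgeR), the only call of these genes between genotypes under that scaling. Of all genes in the IP, 24 were called higher and 4 lower under it, against 1 and 3 with TMM. With TMM Rmrp was not called, and its KO IP libraries overlapped those of WT. KO IP replicates 1 and 4, highest for Rmrp, also had the highest summed level of the 10 microglia markers among the WT and KO IP libraries, at 166 and 153 CPM against 67.5 to 104 in the other 6. The part of these markers in the result was not tested.

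The mRNAs of proteins that work with these RNAs were described beside them. None of the 4 box C/D core proteins, 4 H/ACA core proteins, 10 snoRNP assembly factors, 11 RNase P and MRP proteins or 7 Lsm proteins was called higher or lower in any IP over input. Of 13 Sm, U1 and U2 proteins, Snrnp70, the protein bound to U1 RNA, was called lower in Control at -1.51 (SE 0.05), and 0 of the 13 were called in the other cohorts. Over all genes tested, 15%, 13.1%, 13.1% and 16.9% were called lower in Control, WT, SAPAP3 KO and neurons. In the same order 13.2%, 11.3%, 12.1% and 0.477% were called higher. The median log2 fold changes of the 11 RNase P and MRP proteins were -0.02, 0.15, 0.0012 and 0.35 in Control, WT, SAPAP3 KO and neurons.

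Other noncoding transcripts were called lower in the IP as well. Of 10 nuclear long noncoding RNAs, 9, 9, 9 and 10 were called lower in Control, WT, SAPAP3 KO and neurons, with median log2 fold changes of -2.84, -2.10, -1.78 and -3.05. Malat1, a nuclear speckle RNA, changed by -2.03, -1.99, -1.79 and -3.31. Of 13 noncoding host genes of snoRNAs, 11, 8, 9 and 10 were called lower, with medians of -1.69, -1.12, -1.24 and -1.40. For both lists, the shares of all genes called lower were 15%, 13.1%, 13.1% and 16.9% in the same order. Gas5, the host of several C/D snoRNAs, changed by -1.69, -1.06, -1.08 and -1.35. Terc, the RNA of telomerase and itself an H/ACA RNA, changed by -4.48, -5.12, -2.46 and -3.74 and was called lower in each cohort, as was the vault RNA gene Vaultrc5.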

How the data were processed

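RNA was sequenced from 16 input, 16 IP and 8 bulk libraries of striatum. The authors deposited raw read counts per gene symbol, 1 column per library, after alignment to mm10 with STAR (the submitters' processing notes also name HTSeq). Versions, annotation, strand setting and the treatment of reads with several alignments are not given in the sources used here. The labels name TruSeq Stranded with Ribo-Zero Gold and a HiSeq4000, the paper a Nugen Ovation kit and a NextSeq. No kit for small RNA is named.

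From the deposited counts, each comparison was fitted on all genes with 10 or more counts in at least 4 of the 40 libraries, with only the compared groups in the fit (edgeR 4.0.16, glmQLFit and glmQLFTest, TMM, R 4.3.3), and adjusted by the Benjamini-Hochberg method. Calls needed an adjusted p-value under 0.05 and, for IP over input only, a log2 fold change beyond 1. CPM are scaled by TMM unless given as CPM of the library total. Ratios within a library used counts plus 0.5. Alternatives were limma 3.58.1 with voom, the Wald test and the size factors of DESeq2 1.42.0, total counts, scaling to ribosomal protein genes, filterByExpr, no filter, all 10 groups in one fit, the replicate block and leaving out each library in turn. The fits were tested on simulated data.

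Groups were taken from the labels. Replicate numbers paired IP and input: over 11762 genes the lowest correlation of deviations within a pair was 0.252 in Control, 0.522 in WT, 0.433 in SAPAP3 KO and 0.483 in neurons, and each IP matched its own input best. In neurons the pairing comes from the sample titles. The p-values measure the spread between these samples.

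The genes, lists and tests were chosen with earlier results of these data known. Named genes were both RNase subunits, the 5 of each class with the highest mean CPM, the 5 called lowest per IP comparison, the 5 largest called interactions in each direction, genes called between genotypes, members of the imprinted and spliceosomal lists, and host genes. Others were named after their values were seen. Sequences and coordinates are from RefSeq for GRCm38.p6, and copies were searched with blastn 2.17.0.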

Additional observations from a re-analysis of the deposited data

Results flagged for a closer look

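Of 140 sets of 4 libraries checked for 14 genes, 6 had 1 library far from the other 3, and chance alone gives about 1 in 20. In CPM of the library total these were the lowest WT input library for Rnu11 (1.07), the highest SAPAP3 KO input library for Scarna10 (5.18) and for Snord64 (3.74), the highest Control input library for Snora23 (0.850), the highest WT input library for Snord104 (1.66) and the highest SAPAP3 KO IP library for Snord17 (0.468).

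IP over input differed between neurons and Control by the interaction test (edgeR, Benjamini-Hochberg) for Rpph1 (1.94), Scarna10 (2.45), Scarna2 (1.05), Snora78 (1.95) and Snord104 (0.88), higher in neurons, and for Snora35 (-2.23), Snord47 (-2.09), Snord72 (-3.91), Snord85 (-2.09) and Snord89 (-2.09), lower in neurons, all on the log2 scale. Scarna2 and Snord104 had the opposite sign with ribosomal protein genes as the reference. Between WT and Control it differed for Rmrp (1.96), Rpph1 (2.00), Scarna10 (2.99), Snora78 (1.45) and Snord15b (2.02), higher in WT. Snora78 and Snord15b were no longer called with ribosomal protein genes as the reference (adjusted p = 0.111 and 0.0806 by edgeR) or without WT IP replicate 1 (0.105, Snora78) or 3 (0.0904, Snord15b). The Control inputs stood above the other inputs for Rmrp, Rpph1, Scarna10, Scarna2 and Snora78, and the part of this in the differences was not tested.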

How the results depend on the processing

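The counts of genes called lower in the IP stayed within 1.5 times their value under limma-voom, DESeq2, total counts, ribosomal protein scaling, no filter and the replicate block, and 0 were called higher. Under filterByExpr, which tests fewer genes, 36 of 37 tested were called lower in Control, 30 of 32 in WT and 26 of 28 in SAPAP3 KO. It called 2085 of all 15476 genes lower in Control, 1887 of 15587 in WT and 1798 of 15583 in SAPAP3 KO. Scaling to ribosomal protein genes moved the median log2 fold change of all genes to 0.61 in Control and -0.41 in neurons. With it the neuron against Control interaction had 31 of the 69 genes lower and 3 higher, and WT against Control 3 lower and 4 higher, and 1 gene, Rmrp, was higher in KO IP than WT IP. Of all genes, 13330 were lower and 526 higher in neurons against Control, and 5495 and 70 in WT against Control. In KO IP against WT IP, 4 of all genes were lower and 24 higher. The interaction with neurons turned to -0.49 for Rmrp, -0.65 for Scarna13, -0.035 for Scarna2, -0.28 for Snora74a and -0.19 for Snord104, and that with WT to -0.056 for Scarna13. The cause was not tested. With all 10 groups in one fit, WT against Control had 1 of the 69 genes lower (Snord64), and 2226 of all 16776 genes. With the replicate block it had 1 lower (Snora23) and 11 higher, IP over input had 62, 56, 53 and 66 lower in Control, WT, SAPAP3 KO and neurons, and neurons against Control had 8 lower and 8 higher. Of all genes, the block called 2524, 2265, 2205 and 2864 lower in the same 4 cohorts. It called 2683 lower and 2146 higher in WT against Control, and 6033 and 6275 in neurons against Control. The block changed no other count by more than 1.5 times. No paired analysis was possible because WT and SAPAP3 KO libraries of one kind share at most 1 animal name (in bulk), apart from the interaction of genotype, where the block left 0 calls.

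Without 1 library at a time, 59 to 62 genes were lower in Control, 43 to 55 in WT, 48 to 52 in SAPAP3 KO and 63 to 67 in neurons. The counts over all genes were 2418 to 2473, 2029 to 2253, 1991 to 2325 and 2752 to 2834 lower in the same order. Neurons against Control had 6 to 12 lower, with 6 without Control IP replicate 3, and 8 to 9 higher. Over all genes, that comparison had 5464 to 5597 lower and 5618 to 5878 higher. WT against Control had 5 to 10 higher and 0 to 1 lower. It had 5 higher without Control input replicate 1, Control IP replicate 3, WT IP replicate 2 or WT input replicate 3 or 4, and 1 lower without Control input replicate 3 or WT input replicate 1. Over all genes, WT against Control had 956 to 2417 higher and 1349 to 2388 lower. Genotype comparisons had 0 throughout, and over all genes at most 2 were lower and 1 higher in any of them. Depth limits the rarer genes: in Control IP 51 of the 69 had fewer than 10 counts in every library.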

Other observations

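The 8 bulk striatum libraries were compared only between genotypes. In CPM of the library total they held 627 to 972 of Rmrp, 1495 to 2256 of Rpph1, 64.0 to 92.2 of Scarna13, 2.00 to 3.63 of Scarna10, 3.27 to 5.77 of Scarna2 and 0.493 to 0.977 of Snora78. The other 124 genes, without both RNase subunits, summed to 132 to 172 CPM. In WT and SAPAP3 KO IP 71.6 to 86.5 and 55.6 to 83.6 CPM were in these 124 genes. Scarna13 alone had 60.7 to 76.2 TMM-scaled CPM in WT IP and 49.8 to 73.7 in SAPAP3 KO IP.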
